A study of Mesocricetus auratus with 10 samples.

Results

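The genes described here are those of mitochondrial protein import and mitochondrial dynamics in the liver of golden hamsters (Mesocricetus auratus). They were chosen by name from the array's own annotation. The choice took the genes of the outer membrane translocase (TOMM), the inner membrane translocases and their small chaperones (TIMM), the CHCHD family, the processing peptidase (PMPCA, PMPCB), the mitofusins MFN1 and MFN2, and SAMM50, OPA1, DNM1L, FIS1, PHB, PHB2, LONP1, CLPP and CLPX. That gave 41 genes with 173 probes, of 14434 named genes on the array. All 41 passed the filter on dim probes, among 13827 named genes that did.

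Liver RNA of 10 male hamsters on a high fat diet (HFD) was set against 1 pool of liver RNA made from 10 hamsters on a standard diet (STD). The sources used here do not give their age, the composition of the diets or the feeding time. The RNA of an HFD animal shared 2 arrays with the pool, dyes swapped between them, which makes 20 arrays, so that an animal's value is the mean of 2 arrays and n = 10 animals. Every value is a log2 ratio of HFD liver over the STD pool, where 1 means a 2-fold higher and -1 a 2-fold lower signal. The pool is 1 RNA, so its own spread between animals entered no test.

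Most mitochondrial proteins are made in the cytosol and carried in through the TOM complex of the outer membrane. The TIM complexes pass them into or across the inner membrane, the processing peptidase removes their targeting sequence, and matrix proteases such as LONP1 and CLPXP degrade those that misfold. Mitochondria also fuse through MFN1, MFN2 and OPA1 and divide through DNM1L, and in hepatocytes this balance has been tied to lipid handling and respiration.

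On all 20 arrays the 10 hepatocyte marker genes gave an HFD signal well above background. Between 74.8% and 97.2% of spots per array had such a signal in the HFD channel, and between 74.1% and 95.8% in the pool channel. The 6 arrays that carried animals 5 to 10 with HFD in Cy3 are given apart from the other 14. Their median correlation with the 14 was 0.47 to 0.51, and the 14 correlated at 0.51 to 0.74 among themselves. These ranges meet, and the arrays of animals 1 to 4 with HFD in Cy3 had only 0.51 to 0.59. The 6 stood apart more clearly in the strand classes described below. Each called member that lost its call on the 14 arrays is given with that test, and further members are given on both sets where the values lie far apart. A mean on the 14 arrays is the plain mean unless called fitted. The adjusted p comes from a fit with a term for dye, whose fitted mean can differ. The dye and the animal of each array were read from the array names.

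The probes are 60 bases long and were designed on assembled transcripts whose strand the files do not state. The labelling made cRNA, which is complementary to its template, so a probe with the letters of the mRNA is the one that pairs with cRNA made from it. The strand of each transcript was therefore estimated from the codon use of its probes, as described under the processing. The estimate put the brightest probe in sense for 17 members and in antisense for 9, and did not settle it for 15. These classes are estimates from sequence and not annotation. The deposited files give no genome positions for the probes.

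The MFN1 probes below are shown because they cover the same 59 bases, in capitals, on opposite strands and gave ratios of opposite sign. The capitals of each line are the reverse complement of the other's.
MFN1 probe of a transcript in sense: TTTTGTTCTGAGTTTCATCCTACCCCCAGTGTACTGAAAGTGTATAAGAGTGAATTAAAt
MFN1 probe of another transcript: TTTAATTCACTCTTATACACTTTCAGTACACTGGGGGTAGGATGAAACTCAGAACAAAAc

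The probe in sense had a log2 ratio of 0.20 in the lowest animal, a median of 0.41 and 0.60 in the highest (mean 0.41 ± 0.12, SD, n = 10). Its reverse complement had -0.37, -0.22 and 0.05 on the same log2 scale (mean -0.19 ± 0.15). The sense probe was the higher of the pair on 19 of 20 arrays. It lay above its reverse complement by 1.06 to 1.52 log2 units on the 6 arrays that stood apart, and by -0.03 to 0.66 on the other 14.

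The difference was not limited to MFN1. Over all named genes, 569 pairs of probes of the same gene shared at least 40 bases on opposite strands and differed in strand class. The probe nearer to sense had the higher mean ratio in 498 of these pairs (87.5%), with a median difference of 0.23 log2 units, 0.46 on the 6 arrays and 0.13 on the 14. The 1569 pairs of probes that overlapped by as much on the same strand differed by a median of 0.018 log2 units in size. The median of each strand class was also taken over all named probes that passed the filter. The sense median lay above the antisense median by 0.35 to 0.50 on each of the 6 arrays. On each of the 14 it lay above by 0.04 to 0.21. What part the strand has in a member's ratio was not tested. The strand class of each member's brightest probe is therefore given. TOMM40, TOMM40B, TOMM34 and TIMM44 are antisense. TOMM6, TIMM8A1, TIMM9, TIMM22, PMPCB, CHCHD3, CHCHD4, CHCHD6 and CHCHD7 are not settled. SAMM50, MFN1, MFN2, TIMM8B, CHCHD1 and CHCHD5 are in sense. The other members carry their class where they are described.

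**Figure D1:**
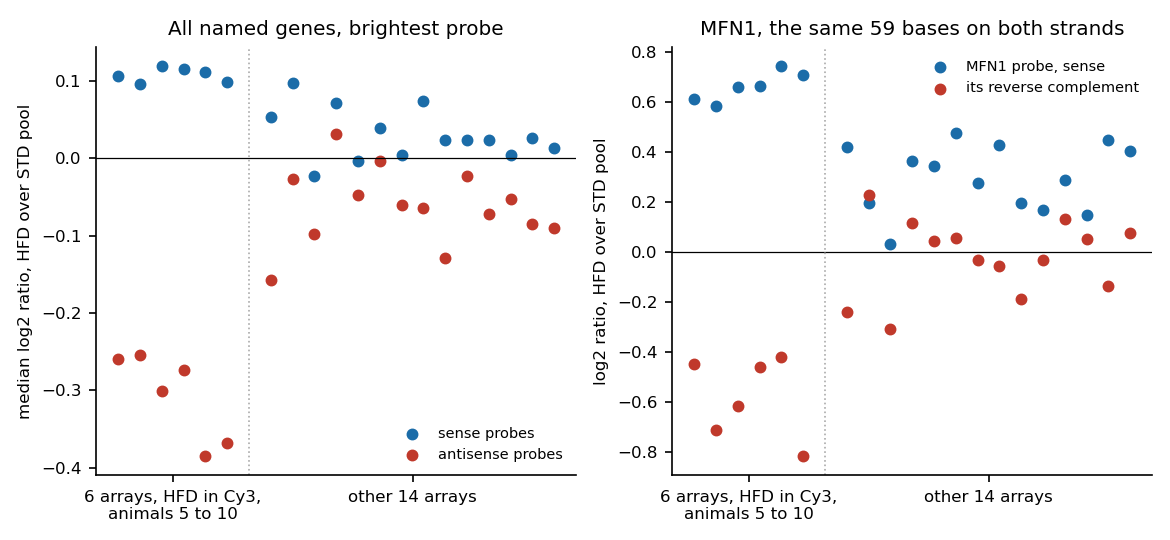
The left panel plots, for each of the 20 arrays, the median log2 ratio (HFD over STD pool) of probes in sense (blue) and in antisense (red). All named probes that passed the filter are included, although the panel heading names the brightest probe. The right panel plots the log2 ratio of the MFN1 probe in sense (blue) and of the probe that carries the same 59 bases in reverse complement (red) on each array. The 6 arrays with HFD in Cy3 of animals 5 to 10 are on the left of the dotted line and the other 14 on its right, and on the 6 arrays the colours are apart by 0.35 or more in the left panel and by 1.06 or more in the right.

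The question of the comparison was which of these genes differed between the diets. Of the 41 members, 29 passed limma's test at an adjusted p under 0.05, 11 higher and 18 lower in HFD liver. Over all 13827 genes 60.3% passed, 31.4% higher and 28.9% lower, so a call by itself says little about a gene in these data. The median member stood at -0.03, against 0.01 over all genes. A mean of at least 0.5 in size was reached by 6 called members (14.6%), against 5.87% of all genes. Of these 6, CHCHD10 was higher, and CLPX, CHCHD2, TOMM20, PHB2 and TOMM70A were lower. In bulk liver RNA, less RNA per cell and fewer cells of a type cannot be told apart.

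The counts of calls differed between strand classes and between sets of arrays, among the members and among all genes. The 9 members whose brightest probe was antisense held 5 that were lower and 0 higher, where 47.9% of all genes with an antisense brightest probe were lower and 11.1% higher. The 17 members with a sense probe held 7 higher and 6 lower, where 38.4% of all such genes were higher and 23.5% lower. The 15 unsettled ones held 4 higher and 7 lower, where 31.2% of all such genes were higher and 28.2% lower. Taking the brightest sense probe of each gene instead left 20 members, 7 higher and 7 lower, against 38.2% higher and 22.4% lower of 7048 genes. On the 14 arrays alone, 8 of the 11 higher and 10 of the 18 lower members kept their call, CHCHD4 (higher) and TOMM34 (lower) were called there but not on all 20, and over all genes 24.9% were higher and 18.3% lower there. With the sense probe and the 14 arrays together, 8 of the 20 members were called as they were on all 20 arrays, 4 in each direction, where 29.5% of all 7048 genes were higher and 16.5% lower. CHCHD10, LONP1, PMPCA and MFN1 were higher, and TOMM5, CLPP, CHCHD8 and FIS1 were lower, with means of -0.16 to -0.12 over the 10 animals.

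**Figure D2:**
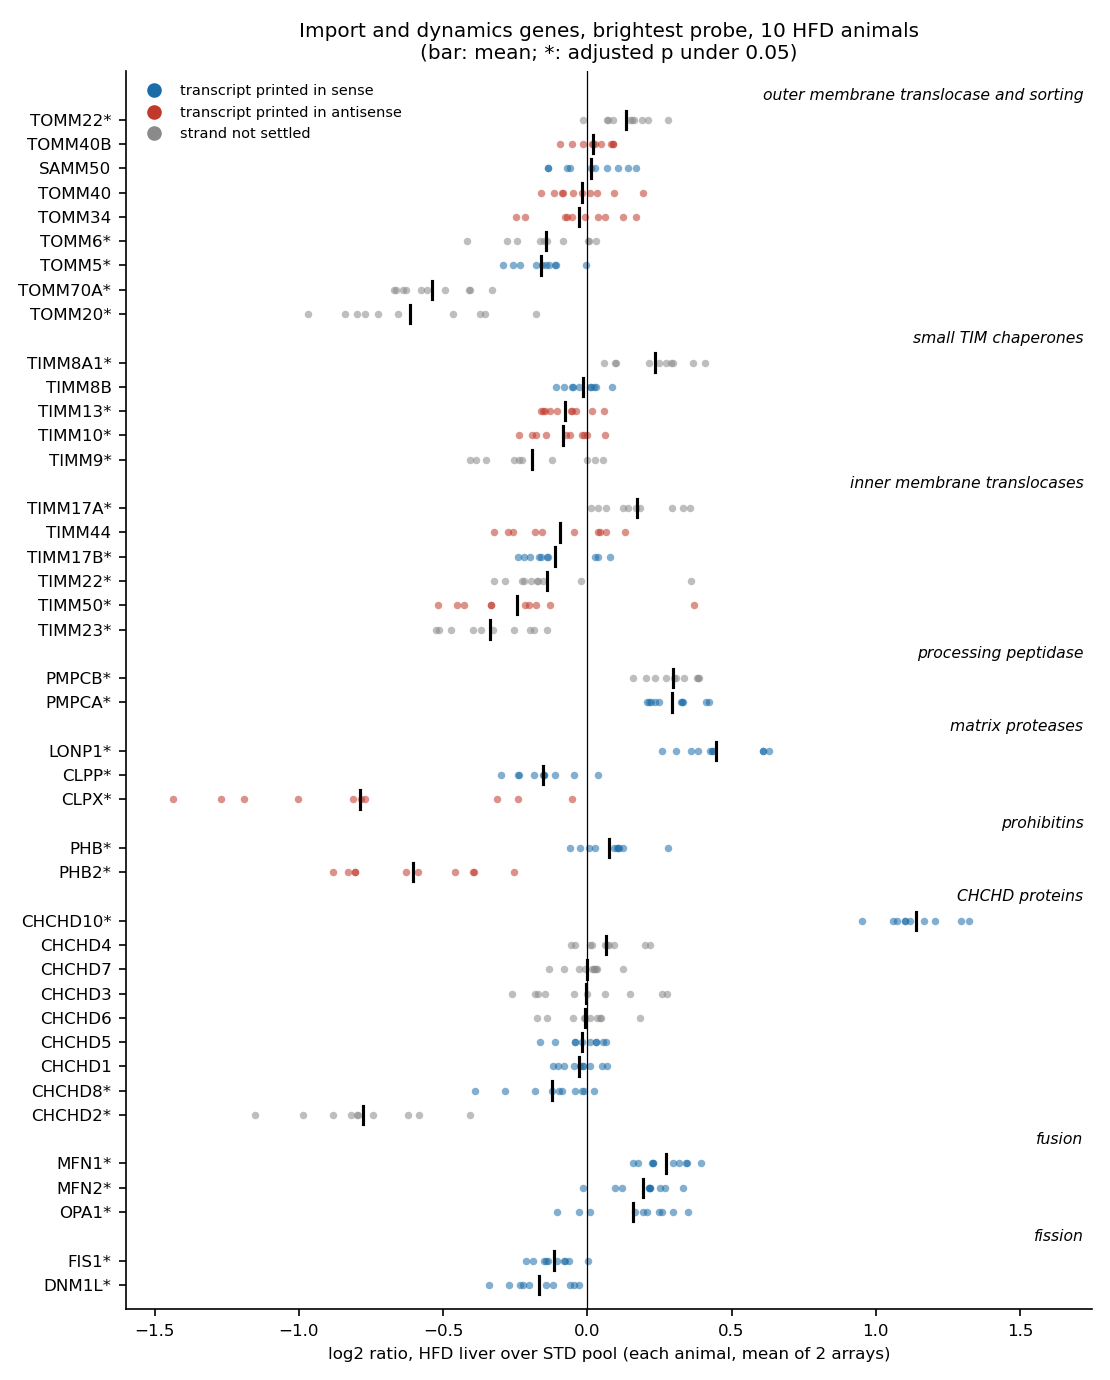
Each point is the log2 ratio of 1 HFD animal over the STD pool for the brightest probe of a gene, the bar is the mean of the 10 animals, and an asterisk marks an adjusted p under 0.05 in limma. Genes are grouped by role and coloured by the strand class of the transcript. CHCHD10 is at 0.95 or above in every animal, and the lowest mean of a blue gene is that of DNM1L at -0.17.

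The outer membrane translocase and the sorting machinery gave 1 higher and 4 lower genes of 9. TOMM20, the receptor for precursors with a cleavable presequence, had ratios of -0.97 in the lowest animal, a median of -0.69 and -0.18 in the highest. Every animal was below the pool, with a mean of -0.61 ± 0.26 (SD, n = 10, adjusted p 8.14e-06 in limma). The receptor for carrier proteins, TOMM70A, ran through -0.67, -0.57 and -0.33 and was likewise below the pool in 10 of 10 animals (mean -0.54 ± 0.12, adjusted p 1.02e-07). Of its 4 further probes 3 were lower, from -0.79, and the fourth stood at -0.04. The strand is not settled for either gene, and both were lower on the 6 arrays (TOMM20 -1.02, TOMM70A -0.96) than on the 14 (TOMM20 -0.44, TOMM70A -0.36). Their calls held on the 14 arrays alone, at an adjusted p of 7.33e-06 for TOMM20 and 2.75e-05 for TOMM70A.

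TOMM5, a small subunit of the translocase, has a sense probe and moved much less. Its ratios were -0.29, -0.15 and -0.01 in the lowest, median and highest animal, all below the pool (mean -0.16 ± 0.08, adjusted p 2.82e-04). TOMM6, another small subunit, averaged -0.14 ± 0.14, and its call was lost on the 14 arrays (adjusted p 0.973). TOMM22, the central receptor, averaged 0.14 ± 0.08 on its brightest probe and was called higher, but its other probe, on a different transcript, averaged -0.24 and was called lower. Neither strand is settled, so the direction of TOMM22 depends on which probe is read. The pore TOMM40, its paralogue TOMM40B, the cytosolic cochaperone TOMM34 and SAMM50, which inserts barrel proteins into the outer membrane, did not pass, with means between -0.03 and 0.02. Means near 0 covered opposite values in 3 of the 4, with 0.20 on the 6 and -0.13 on the 14 arrays for TOMM34, 0.30 and -0.11 for SAMM50, and -0.26 and 0.08 for TOMM40. TOMM34 was called lower on the 14 (adjusted p 0.0182). Of 3 further probes each, 2 of TOMM40 and 1 of SAMM50 were called lower, and those of TOMM34 and TOMM40B were not called.

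The small TIM chaperones escort precursors across the intermembrane space. TIMM8A1 was the higher one, with 0.06, 0.26 and 0.41 in the lowest, median and highest animal. It was above the pool in 10 of 10 animals (mean 0.23 ± 0.12, adjusted p 9.69e-05), its 4 further probes averaged 0.17 to 0.23, and the mean was 0.20 on the 6 and 0.25 on the 14 arrays. TIMM9 and TIMM10, which form the carrier chaperone together, were both called lower on 20 arrays. TIMM9 ran through -0.41, -0.23 and 0.06, with 3 animals above the pool (mean -0.19 ± 0.17, adjusted p 0.00433). For TIMM10, on an antisense probe, the values were -0.24, -0.07 and 0.06 (mean -0.09 ± 0.10, adjusted p 0.031). Neither was called on the 14 arrays, where the adjusted p was 0.289 for TIMM9 and 0.772 for TIMM10, whose fitted mean turned to 0.02. TIMM13, also antisense, averaged -0.08 ± 0.08 on its brightest probe and -0.39 and -0.36 on the others. Its call was lost on the 14 arrays (adjusted p 0.561), and TIMM8B did not pass (mean -0.02 ± 0.06). The other TIMM8B probe averaged -0.10 and was called lower.

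Of the 6 inner membrane translocase genes, 1 was higher and 4 were lower. TIMM23, the channel of the presequence translocase, had -0.52, -0.35 and -0.14 in the lowest, median and highest animal, all below the pool (mean -0.34 ± 0.14, adjusted p 1.44e-05). Its mean was -0.72 on the 6 arrays and -0.18 on the 14, where it was still called (adjusted p 0.00562). The 3 further TIMM23 probes averaged -0.37 to -0.05, with a median of -0.13, and 2 of them were called lower. Its partner TIMM17A went the other way, with 0.01, 0.15 and 0.36 and 10 of 10 animals above the pool (mean 0.17 ± 0.12, adjusted p 0.00134). The 3 further TIMM17A probes averaged 0.16 to 0.20, and its mean was 0.04 on the 6 arrays and 0.23 on the 14, where it was called (adjusted p 2.36e-04). The strand of both TIMM23 and TIMM17A is not settled.

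TIMM50, the receptor that hands presequences to the channel, ran from -0.52 through a median of -0.27 to 0.37 on an antisense probe. The highest value is that of animal 2, the only animal above the pool (mean -0.24 ± 0.25, adjusted p 0.00776), and on the 14 arrays the call was lost (adjusted p 0.0645). The 4 further TIMM50 probes averaged -0.20 to -0.08 and were all called lower. TIMM22, the channel of the carrier pathway, averaged -0.14 ± 0.19, again with animal 2 as the only one above the pool. Both values of animal 2 rest mostly on its array with HFD in Cy5 (TIMM50 0.61, TIMM22 0.66). With HFD in Cy3 they were 0.13 and 0.06. TIMM22 stood at -0.37 on the 6 arrays and -0.05 on the 14, where its call was lost (fitted mean -0.09, adjusted p 0.248). TIMM17B, the paralogue of TIMM17A, has sense probes and averaged -0.11 ± 0.12. Its mean was -0.49 on the 6 arrays and 0.05 on the 14. The sign also differed by dye, at -0.11 with HFD in Cy3 in animals 1 to 4 and 0.12 with HFD in Cy5. In the fit on the 14 arrays, with a term for dye, TIMM17B came to 0.00 and was not called (adjusted p 0.956). TIMM44, which tethers the import motor to the channel, averaged -0.10 ± 0.16 and did not pass (-0.32 on the 6 arrays, 0.00 on the 14). The other TIMM44 probe averaged -0.11 and was called lower.

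Both subunits of the mitochondrial processing peptidase, which cuts off presequences in the matrix, were higher and nearly equal in size. PMPCA had 0.21 in the lowest animal, a median of 0.29 and 0.42 in the highest, with a sense probe (mean 0.29 ± 0.08, adjusted p 1.64e-06). For PMPCB the values were 0.16, 0.30 and 0.39 (mean 0.30 ± 0.08, adjusted p 1.42e-06). All 10 animals were above the pool for both genes. Of the 7 further PMPCA probes 6 were called higher, and the 5 of PMPCB all were, at 0.14 to 0.26. On the 14 arrays PMPCA averaged 0.23 and PMPCB 0.25, and both kept their call.

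Probes of the matrix proteases and the prohibitins are shown because LONP1 was higher on sense probes, while the CLPX and PHB2 probes are antisense and were lower.
LONP1 brightest probe, sense: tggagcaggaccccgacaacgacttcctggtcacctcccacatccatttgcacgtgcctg
CLPX brightest probe, antisense: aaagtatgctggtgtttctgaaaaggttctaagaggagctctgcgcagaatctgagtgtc
PHB2 brightest probe, antisense: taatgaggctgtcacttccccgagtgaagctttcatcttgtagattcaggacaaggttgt

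LONP1 encodes the Lon protease of the matrix. Its ratios were 0.26 in the lowest animal, 0.43 at the median and 0.63 in the highest, so that every HFD animal was above the pool. The mean of 0.45 ± 0.13 is a 1.36-fold rise (SD, n = 10, adjusted p 8.51e-07). All 7 further probes, in sense on the same transcript, were higher at 0.40 to 0.60, and the 6 and the 14 arrays gave 0.45 and 0.44.

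CLPX, the unfoldase that feeds the protease CLPP, had the lowest mean of the members and the widest spread. It ran through -1.44, -0.80 and -0.05 in the lowest, median and highest animal (mean -0.79 ± 0.46, adjusted p 1.14e-04). All animals were below the pool, and the 4 further probes, antisense on the same transcript, averaged -0.85 to -0.58. On the 6 arrays the 6 values lay between -2.35 and -1.43, and on the 14 between -0.88 and 0.07, with no overlap. The call held on the 14 arrays at a fitted mean of -0.37 (adjusted p 4.73e-04). CLPP itself, with a sense probe, had -0.30, -0.15 and 0.04, with 9 of 10 animals below the pool (mean -0.15 ± 0.10, adjusted p 9.25e-04). Its 2 further probes were called lower, and its call held on the 14 arrays. The mean of CLPP was -0.29 with HFD in Cy3 and -0.02 with HFD in Cy5, and its call was lost on the Cy5 arrays alone.

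The prohibitins PHB and PHB2 build a ring scaffold in the inner membrane. PHB2 had -0.88, -0.61 and -0.25 in the lowest, median and highest animal, all below the pool (mean -0.60 ± 0.22, adjusted p 3.00e-06). All 5 PHB2 probes are antisense and were lower, and the mean was -1.17 on the 6 arrays and -0.36 on the 14, where it was called (adjusted p 1.81e-05). PHB, with a sense probe, ran through -0.06, 0.10 and 0.28, with 8 of 10 animals above the pool. Its mean of 0.08 ± 0.10 passed narrowly, at an adjusted p of 0.04997, and was not called on the 14 arrays (adjusted p 0.21). Its other probe, on a transcript of unsettled strand, averaged -0.20. No PHB2 probe in sense was measured, so the 2 prohibitins cannot be compared on 1 strand.

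**Figure D3:**
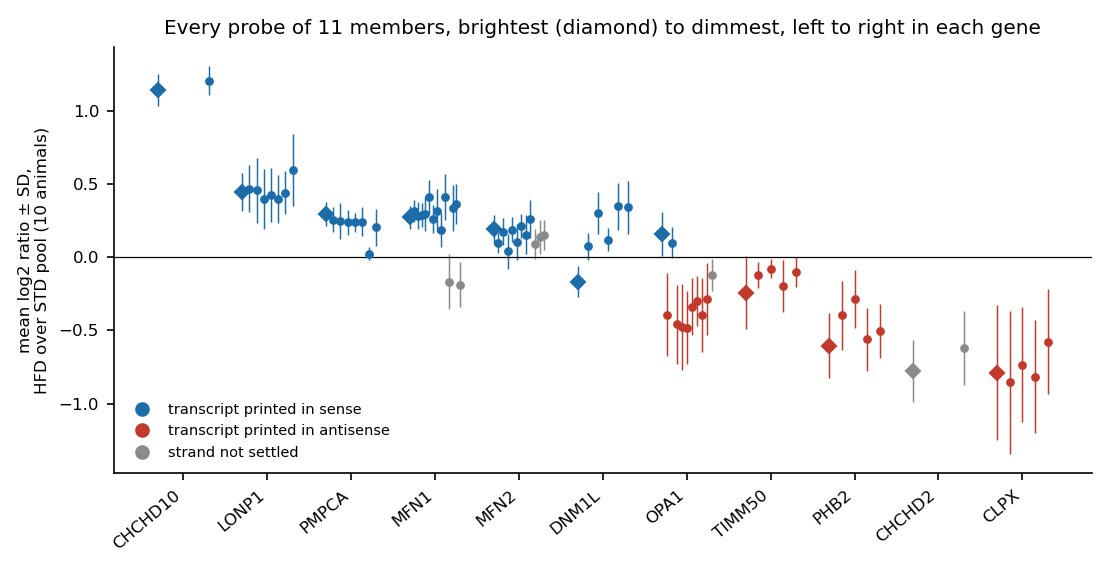
Each marker is the mean log2 ratio (HFD over STD pool) of 1 probe over 10 animals, with the SD as the error bar, for every probe of 11 members. The diamond is the brightest probe, and the colour gives the strand class. Probes in sense lie above 0 except the brightest DNM1L probe, and the antisense probes of OPA1, TIMM50, PHB2 and CLPX lie below 0.

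The paralogues CHCHD10 and CHCHD2, small intermembrane space proteins that in human cells associate with each other, moved in opposite directions. Their probes are shown because the contrast between the paralogues rests on them.
CHCHD10 brightest probe, sense: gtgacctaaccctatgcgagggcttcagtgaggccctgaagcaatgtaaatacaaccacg
CHCHD2 brightest probe, strand not settled: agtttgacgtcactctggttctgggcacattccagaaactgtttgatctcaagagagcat

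CHCHD10 had 0.95 in the lowest animal, a median of 1.11 and 1.32 in the highest. The lowest HFD animal was thus well above the pool, and the mean of 1.14 ± 0.11 is a 2.20-fold rise (SD, n = 10, adjusted p 6.94e-11). The probe's normalised log2 signal averaged 14.85 ± 0.13 in the HFD channel and 13.71 ± 0.10 in the pool channel over the 10 animals. Its further probe averaged 1.20, and the 6 and the 14 arrays gave 0.95 and 1.22. CHCHD10 was the member with the largest mean ratio in size, and its direction and call held under the 30 alternatives that gave it a value. The brightest antisense probe was no alternative for CHCHD10, which has none.

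CHCHD2 had -1.15, -0.80 and -0.41 in the lowest, median and highest animal, all below the pool (mean -0.78 ± 0.21, adjusted p 2.12e-07). The further probe, on the same transcript, averaged -0.62. The mean was -1.21 on the 6 arrays and -0.59 on the 14, and the call held on the 14 (adjusted p 1.48e-07). Since the strand of this transcript is not settled, it is not known whether the paralogues were read on the same strand. Read in reverse complement, the printed CHCHD2 probe resembles the conserved end of the CHCHD2 coding sequence, which would make it antisense. That reading was by eye and was not tested against a protein sequence. CHCHD8, an assembly factor of cytochrome c oxidase, has a sense probe and ran through -0.39, -0.09 and 0.02 (mean -0.12 ± 0.13, adjusted p 0.0158). Its mean was -0.20 with HFD in Cy3 and -0.04 with HFD in Cy5. The CHCHD8 call was lost on the Cy5 arrays alone, with median centring, in scan session 1 and in animals 1 to 4. The other 6 CHCHD genes did not pass on all 20 arrays. Among them are CHCHD4, the oxidoreductase of intermembrane space import (0.06 ± 0.09), CHCHD1 of the mitochondrial ribosome (-0.03 ± 0.06), and the cristae organisers CHCHD3 (-0.01 ± 0.19) and CHCHD6 (-0.01 ± 0.10). The other CHCHD1 probe averaged -0.08 and was called lower, as were 2 of the 4 further probes of CHCHD7. On the 14 arrays CHCHD4 was called higher (fitted mean 0.11, adjusted p 0.00681). The brightest CHCHD3 probe hid a split by dye, with a mean of -0.27 with HFD in Cy3 and 0.25 with HFD in Cy5, and its 2 further probes, in sense on another transcript, averaged -0.16 and -0.11 and were called lower.

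All 3 fusion genes were higher on their brightest probe and both fission genes were lower on theirs. These probes are in sense, where 38.4% of all such genes were higher and 23.5% lower. On the 14 arrays MFN1 and FIS1 kept their call, and MFN2, OPA1 and DNM1L did not. The probes of OPA1 and DNM1L below are shown because different probes of the same gene gave opposite calls.
OPA1 brightest probe, sense: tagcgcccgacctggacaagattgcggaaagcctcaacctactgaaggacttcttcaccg
OPA1 next brightest probe, antisense: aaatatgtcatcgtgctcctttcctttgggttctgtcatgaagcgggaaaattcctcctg
DNM1L brightest probe, sense: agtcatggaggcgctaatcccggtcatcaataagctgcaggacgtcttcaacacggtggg
DNM1L further probe, sense: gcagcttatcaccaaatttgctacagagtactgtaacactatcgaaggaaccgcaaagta

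MFN1, which joins outer membranes, had 0.16, 0.26 and 0.39 in the lowest, median and highest animal on its brightest probe, all above the pool (mean 0.27 ± 0.08, adjusted p 3.27e-06). Its 12 sense probes averaged 0.19 to 0.41 and were all called higher. The 2 that were lower are those of the transcript that reads MFN1 in reverse complement. MFN2 ran through -0.02, 0.22 and 0.33, with 9 of 10 animals above the pool (mean 0.19 ± 0.10, adjusted p 1.90e-04). Of its 11 further probes 10 were called higher, from 0.04 to 0.26 over the 11. On the 14 arrays MFN1 kept its call, and MFN2 missed the threshold (adjusted p 0.0533).

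OPA1, which joins inner membranes, had -0.11, 0.20 and 0.35 on its brightest probe, which is in sense, with 8 of 10 animals above the pool (mean 0.16 ± 0.15, adjusted p 0.00652). The mean was 0.52 on the 6 arrays and 0.01 on the 14, where it was not called (adjusted p 0.299). The other sense probe averaged 0.10, while the 8 antisense probes averaged -0.48 to -0.28 and were all called lower. The antisense probe printed above had -0.92, -0.39 and 0.01 (mean -0.39 ± 0.28), -0.97 on the 6 arrays and -0.15 on the 14. The sense probes of OPA1 were thus higher and the antisense probes lower, and the mean of its 11 probes was -0.27 and called lower.

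DNM1L, the GTPase that constricts mitochondria, had -0.34, -0.17 and -0.03 on its brightest probe, below the pool in every animal (mean -0.17 ± 0.10, adjusted p 6.96e-04). That probe averaged -0.57 on the 6 arrays and 0.00 on the 14, with HFD in Cy3 at -0.44 and HFD in Cy5 at 0.10. The call of DNM1L was lost on the 14 (fitted mean -0.05, adjusted p 0.448). Its 5 further probes, in sense on the same transcript, averaged 0.08 to 0.35, and 4 of them were called higher. The further probe printed above had 0.07, 0.32 and 0.57, above the pool in every animal (mean 0.35 ± 0.16). Strand class does not separate these probes, and whether they read different transcript forms was not tested. FIS1, an outer membrane adaptor, has sense probes and ran through -0.21, -0.12 and 0.00 (mean -0.12 ± 0.06, adjusted p 0.00124). It was below the pool in 9 of 10 animals and kept its call on the 14 arrays (adjusted p 0.0392). Its other probe averaged -0.07 and was not called. The mean of FIS1 was -0.20 with HFD in Cy5 and -0.03 with HFD in Cy3. Its call was lost on the Cy3 arrays alone, with median centring, in scan session 3 and in animals 1 to 4.

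**Figure D4:**
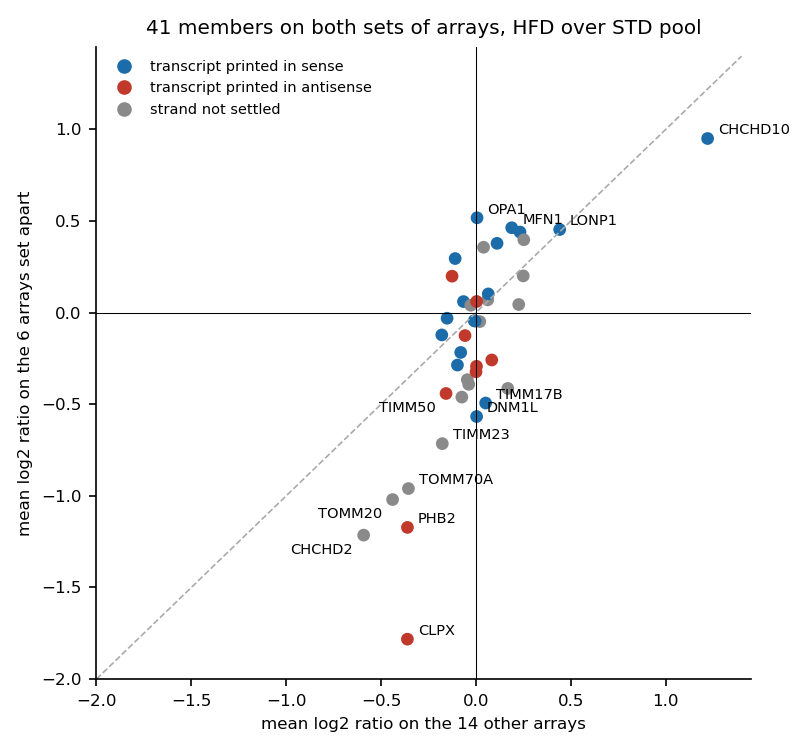
Each point is 1 of the 41 members, with its mean log2 ratio (HFD over STD pool) over the 14 arrays on the horizontal axis and over the 6 arrays that stood apart on the vertical axis. The dashed line marks equal values, and the colour gives the strand class. LONP1 lies on the line, CHCHD10 a little below it, and CLPX, CHCHD2, PHB2, TOMM20 and TOMM70A lie far below it.

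The 5 members that were lower by 0.5 or more averaged -1.78 to -0.96 on the 6 arrays and -0.59 to -0.36 on the 14. No probe of the 5 is classed as sense, since 2 have antisense probes and the strand of the other 3 is not settled. Across animals, between 17 and 23 of the 41 members were above the pool in animals 1 to 4, and between 14 and 20 in animals 5 to 10, which are the animals of the 6 arrays. The part of the 6 arrays and of the strand in these falls was not tested.

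Among 69 further genes of the same pathways, 26 were higher and 21 lower (68.1% called). Over all genes 60.3% were called, 31.4% higher and 28.9% lower, and the lists below stand beside these shares. Of the cristae complex MICOS, to which CHCHD3 and CHCHD6 above also belong, the 3 genes of this list were higher, IMMT at 0.28 ± 0.10, APOO at 0.22 ± 0.13 and APOOL at 0.19 ± 0.10. In the import motor and folding list, 5 of 13 were higher and 4 lower. PITRM1, a peptidase that degrades cut presequences, was higher (0.60 ± 0.10), and the chaperonin HSPD1 (-0.80 ± 0.41, -0.46 on the 14 arrays) and the motor chaperone HSPA9 (-0.43 ± 0.36, -0.13 on the 14) were lower on antisense probes. Of 7 import partners 0 were higher and 2 lower, ROMO1 on an antisense probe (-0.30 ± 0.12) and AIFM1 on a probe of unsettled strand (-0.21 ± 0.19, -0.10 on the 14 arrays). Further probes of IMMT, APOO, HSPA9 and AIFM1 were called in both directions, 3 higher and 8 lower of 13 for HSPA9.

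Of 13 adaptors and regulators of dynamics, 6 were higher and 3 lower. MFF, the outer membrane receptor of DNM1L, was lower on a sense probe in every animal (-0.46 ± 0.08, -0.23 on the 14 arrays), but of its 8 further probes 4 were called higher and 2 lower, so that its direction depends on the probe. The motor adaptors TRAK2 (0.43 ± 0.19, 0.27 on the 14 arrays) and TRAK1 (-0.34 ± 0.27, -0.13 on the 14), which move mitochondria along microtubules, were called in opposite directions on probes of unsettled strand, and both also have further probes called in each direction. Of 7 inner membrane proteases and scaffolds 3 were higher, STOML2 (0.34 ± 0.07) and SPG7 (0.18 ± 0.07) among them, both on sense probes, and AFG3L2, the partner protease of SPG7, was lower on an antisense probe (-0.18 ± 0.10, -0.10 on the 14 arrays). Among 4 stress regulators, ATF5, a factor of the mitochondrial stress response, was lower in every animal (-0.81 ± 0.16), ATF4 was lower (-0.47 ± 0.26, -0.30 on the 14 arrays) and DDIT3 was higher (0.67 ± 0.41), all on probes of unsettled strand.

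Of 10 genes of biogenesis and mitochondrial DNA, 4 were higher and 2 lower. The mitochondrial RNA polymerase POLRMT was lower on a sense probe (-0.39 ± 0.09), as were 2 of its 5 further probes. The activators NRF1 (0.35 ± 0.17, strand not settled) and PPARGC1A (0.22 ± 0.24, 0.08 on the 14 arrays) were higher on their brightest probes. PPARGC1A was above the pool in 7 of 10 animals. Of the further probes, 1 of 7 for NRF1 and 2 of 10 for PPARGC1A were called higher, and 0 lower. Of 7 mitophagy genes 2 were higher, FUNDC1 (0.34 ± 0.18) among them, and 3 were lower, among them PARK2 (-0.38 ± 0.08) and, on an antisense probe, BNIP3 (-0.77 ± 0.38, -0.38 on the 14 arrays). The 5 genes taken as a measure of mitochondrial mass did not move together. Citrate synthase CS (0.61 ± 0.20) and the channel VDAC2 (0.35 ± 0.10) were higher, and the other 3, VDAC1 on an antisense probe (-0.34 ± 0.23, -0.15 on the 14 arrays) among them, were lower. VDAC3, another of the 3 and named after its values were seen, averaged -0.29 ± 0.37 but 0.09 on the 14 arrays.

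Cell type markers are given beside the shares over all genes, 31.4% higher and 28.9% lower. Of 10 hepatocyte markers 1 was higher and 8 were lower. Of these 8, 6 were on antisense probes, where 47.9% of all such genes were lower. The mean ratio of the hepatocyte markers per animal lay between -0.79 and -0.31. Of 9 macrophage markers 5 were higher and 3 lower (-0.06 to 0.33 per animal), of 6 endothelial markers 3 and 2, of 8 stellate cell markers 2 and 2, and of 5 lymphocyte markers 0 and 3. Both erythroid markers were lower (-0.69 to 0.37 per animal), and 0 of 4 cholangiocyte markers passed. The part of cell composition in the members' ratios was not tested.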

How the data were processed

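The deposited spot intensities (mean signal and median local background, green and red) come from Agilent Feature Extraction 10.7.3.1, per the file headers. A log2 ratio for every probe and sample was deposited too, and the submitters' processing notes name limma for it. Neither its centring nor the averaging over arrays is stated there. With the dyes taken from the array names, these deposited log2 ratios ran as HFD over STD pool and correlated at 0.92 to 0.973 per animal with the ratios computed here (slopes 0.999 to 1.39, column medians -0.0145 to 0.0185), and their exact scale stays unknown.

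Intensities were corrected with normexp (offset 50) and each array was normalised by loess (limma 3.58.1, R 4.3.3), giving control and outlier spots a weight of 0. Spots of a probe, then the 2 arrays of an animal, were averaged. Probes needed a signal well above background in HFD RNA, or in the pool, on 10 or more of 20 arrays, and a value everywhere, and the brightest stood for its gene. Means were tested against 0 with lmFit and eBayes, two-sided, with Benjamini-Hochberg adjustment over 13827 genes, or over all named probes for single probes. The fit on 14 arrays took arrays one by one, with a term for dye and the animal as random block. The p-values leave out the spread of the pool, and the number of arrays limits the precision. The procedure was tested on simulated ratios.

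The strand of a transcript was estimated from the codon pairs of its probes by expectation maximisation over all probes, with a probability over 0.95 called sense and its mirror antisense. In 3678 transcripts the strand was settled from each part of a split of their probes, and it came out the same in 3631 (98.7%). The codon tables were learnt from all probes, so the parts of a split are not independent. Of 30573 transcripts, 17264 stayed unsettled.

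Gene names are those of the array design, and RefSeq symbols of the assembly BCM_Maur_2.0 matched 35 of the 41. The members, roles and further lists were chosen with earlier results of these data known, and the strand estimate was added after seeing the data. In each role, up to 3 called members with the largest mean ratio in size are described in full. In each further list, up to 3 called genes are named by the same order. Probes other than the brightest were picked for display after their values were seen.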

Additional observations from a re-analysis of the deposited data

Results flagged for a closer look

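In 2 of the 41 members, 1 HFD animal lay far from the other 9, judged by its gap to the nearest animal as a share of the whole range. TIMM22 had a log2 ratio of 0.357869 in animal 2, where the nearest animal stood at -0.02. TIMM50 had 0.369309 in the same animal, where the nearest stood at -0.13. Both values rest mostly on 1 array, that of animal 2 with HFD in Cy5 (TIMM22 0.66, TIMM50 0.61). Its array with HFD in Cy3 gave 0.06 and 0.13. The Cy5 array also had the highest median red signal of the 20 arrays (714, against a median of 206). Chance alone would mark about 1 group in 20 if the groups were independent, which 41 members read in the same animals are not. Whether 2 of 41 is beyond chance was not tested. The TIMM50 probe is antisense and the strand of the TIMM22 probe is not settled.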

How the results depend on the processing

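The results were recomputed under 31 alternatives, 10 of which leave out 1 animal. Those added after seeing the data are the strand classes, the scan sessions and the 2 sets of animals. The alternatives that take a sense or an antisense probe give no value for a member without one. Of the 29 called members, 14 kept direction and call in each of the 28 to 30 alternatives that gave them a value: CHCHD10, CHCHD2, CLPX, LONP1, MFN1, PHB2, PMPCA, PMPCB, TIMM17A, TIMM23, TIMM8A1, TOMM20, TOMM5 and TOMM70A. Leaving out 1 animal gave 10 to 11 higher and 15 to 19 lower members, 25 to 28 higher and 17 to 21 lower further genes, and a median member ratio of -0.0380 to -0.0175. PHB lost its call without any of animals 1, 2, 3, 5, 6, 7 and 8 (adjusted p up to 0.118), TIMM22 without any of animals 1 and 4 to 10 (up to 0.0837), TIMM10 without 5, 8, 9 or 10 (up to 0.0756) and TIMM13 without 6, 7 or 9 (up to 0.0583).

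Higher members numbered 11 in the report, 7 in animals 1 to 4 alone, 7 with the brightest sense probe, 0 with the brightest antisense probe and 4 with the sense probe on 14 arrays. Lower members numbered 18 in the report, 11 with median centring, 11 on the 14 arrays, 9 on the arrays of scan session 3, 8 in animals 1 to 4, 7 with sense probes, 6 with antisense probes and 4 with sense probes on 14 arrays. Sense probes cover 20 members and antisense probes 10. Further genes of the pathways, 26 higher and 21 lower in the report, came to 15 higher and 5 lower with sense probes, 2 and 11 with antisense probes, and 12 and 5 with sense probes on 14 arrays. Lower ones numbered 12 on the 14 arrays, 13 in scan session 3 and 8 in animals 1 to 4. The median member ratio was -0.0824 when all probes of a gene were averaged and -0.0911 with antisense probes.

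The sign turned for 9 members in some setting, counting those where a call was made. When all probes were averaged, DNM1L came to 0.169, OPA1 to -0.272, PHB to -0.0602 and TOMM22 to -0.0503. With HFD in Cy5 alone, CHCHD3 came to 0.253, DNM1L to 0.101, OPA1 to -0.0411, SAMM50 to -0.160, TIMM17B to 0.117 and TOMM22 to -0.0136. In the fit on the 14 arrays TIMM10 came to 0.0150, TIMM13 to 0.0265 and TIMM17B to 0.00267, or 0.00270 among sense probes. In animals 1 to 4 TIMM10 came to 0.00727 and TIMM17B to 0.00111. OPA1 was -0.392 on its brightest antisense probe. Beyond the smaller number of arrays or genes in each, the cause was not tested.

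Animals of 1 scan session alone could not be fitted, because no animal has both arrays in 1 session. No paired analysis was possible because there is 1 group of animals and 1 pool. The strand is estimated and stays unsettled for 15 members, and the direction of the ratios rests on array names.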
